A study of Mus musculus with 6 samples.

Results

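H3K27ac in resting muscle was described from the peaks that the authors called in the quadriceps of sedentary control mice. All rows of the control peak table were taken, which gave 46988 of the 87709 regions in the 2 deposited tables. The series compared mice kept in cages without wheels with mice that had run voluntarily for 4 weeks and then rested for 72 hours, and only the former were described here. The animals were wild-type male C57BL/6J mice, caged at 8 weeks of age, and each sample was a single quadriceps femoris muscle from 1 animal. There were 2 H3K27ac libraries and 1 input library, which is sheared chromatin sequenced without immunoprecipitation. The H3K27ac libraries are labelled as strain C57BL/6 with an Active Motif antibody to H3K27ac, and the label of the input reads C57BL/7 and names the same antibody. The library columns are named C2 and C3 and the sample titles control1 and control2, so which column came from which mouse was left unassigned.

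H3K27ac is acetylation of lysine 27 on histone H3, and it marks nucleosomes beside active promoters and active enhancers. Promoters start transcription of the gene they adjoin, and enhancers act on promoters from a distance. Long stretches with dense H3K27ac often lie at genes that define a cell's identity. The quadriceps of the mouse is made mostly of fast, glycolytic fibres and also holds blood vessels, nerve, connective tissue and immune cells. In whole muscle, fewer cells of a type and less signal per cell cannot be told apart.

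The libraries held 22400894 tags for C2, 21796628 tags for C3 and 10812470 tags for the input. For every peak the table gave a log2 value per library, and enrichment was the mean of C2 and C3 minus the input. Peaks were called for exceeding this input, so enrichment over input is a description of the peaks and was not tested. The Peak Score pools the tags that C2 and C3 placed in a peak, scaled to 10000000 tags. The SD between C2 and C3 had a median of 0.136 over the peaks on the log2 scale, and the Spearman correlation of their enrichments across peaks was 0.782. The same input was subtracted from both, so part of this correlation is built in. The log2 values are shrunken toward the mean of the peak, so folds and this SD are understated, most of all for weak peaks.

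The DNA in front of marker genes of muscle and of the genes with the strongest peaks is printed to show which motifs lie under the acetylated start sites. Each sequence is the 250 bases before the RefSeq start in GRCm38.p6, 5′ to 3′ on the strand of the gene. Capitals mark matches on either strand to the MEF2 motif and the CArG box, given by name, and to 5 short motifs. The MEF2 motif and the CArG box are the A/T-rich sites read by the muscle factor MEF2 and by SRF. CAGCTG is a core of the E-box read by the MyoD family, and CATTCC is the MCAT core read by TEAD factors. AAGGTCA is a site of estrogen-related receptors. GGGCGG is the GC box of Sp1-like factors. CCGGAAG is a site of ETS factors. The promoters of Acta1, which encodes skeletal α-actin (chr8:123894776-123895025, minus strand), of Ckm, the muscle creatine kinase (chr7:19410844-19411093, plus strand), and of Myh4, the fastest myosin heavy chain (chr11:67237562-67237811, plus strand), read as follows.
Acta1: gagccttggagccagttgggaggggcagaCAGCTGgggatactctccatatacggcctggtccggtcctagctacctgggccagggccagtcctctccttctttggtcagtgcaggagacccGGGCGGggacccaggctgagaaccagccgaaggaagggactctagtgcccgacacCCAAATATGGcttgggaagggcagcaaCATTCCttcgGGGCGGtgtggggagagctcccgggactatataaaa
Ckm: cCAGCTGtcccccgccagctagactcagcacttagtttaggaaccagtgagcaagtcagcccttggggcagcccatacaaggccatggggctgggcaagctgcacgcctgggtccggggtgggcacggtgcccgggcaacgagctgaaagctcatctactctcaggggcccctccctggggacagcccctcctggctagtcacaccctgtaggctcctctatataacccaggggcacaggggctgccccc
Myh4: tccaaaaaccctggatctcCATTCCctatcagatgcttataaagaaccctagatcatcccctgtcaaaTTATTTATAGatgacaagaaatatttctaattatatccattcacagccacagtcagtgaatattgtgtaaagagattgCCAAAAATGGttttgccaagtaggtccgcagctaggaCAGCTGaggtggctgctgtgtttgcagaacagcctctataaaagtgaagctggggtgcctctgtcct

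The promoters of Pygm, the muscle glycogen phosphorylase (chr19:6384158-6384407, plus strand), and of Mybpc2, fast myosin-binding protein C (chr7:44524670-44524919, minus strand), lay under long peaks of metabolic and contractile genes.
Pygm: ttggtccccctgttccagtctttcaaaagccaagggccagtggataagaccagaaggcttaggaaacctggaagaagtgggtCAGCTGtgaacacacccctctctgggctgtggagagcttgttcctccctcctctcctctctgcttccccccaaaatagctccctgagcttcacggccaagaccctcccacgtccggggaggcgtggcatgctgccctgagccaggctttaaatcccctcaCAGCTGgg
Mybpc2: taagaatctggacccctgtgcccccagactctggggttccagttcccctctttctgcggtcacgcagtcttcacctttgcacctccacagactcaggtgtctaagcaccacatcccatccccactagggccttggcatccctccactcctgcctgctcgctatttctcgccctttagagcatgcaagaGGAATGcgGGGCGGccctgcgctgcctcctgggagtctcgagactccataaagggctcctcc

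The promoters of Hcfc1, a transcriptional coregulator (chrX:73966358-73966607, minus strand), and Acsl4, an acyl-CoA synthetase (chrX:142390536-142390785, minus strand), held the 2 peaks with the highest enrichment. In Hcfc1 the GGGCGG and CCGGAAG matches overlap by 1 base. The promoter of Klf9, a Krüppel-like transcription factor (chr19:23140976-23141225, plus strand), lay under a peak of 22336 bp and held none of these motifs in its 250 bases.
Hcfc1: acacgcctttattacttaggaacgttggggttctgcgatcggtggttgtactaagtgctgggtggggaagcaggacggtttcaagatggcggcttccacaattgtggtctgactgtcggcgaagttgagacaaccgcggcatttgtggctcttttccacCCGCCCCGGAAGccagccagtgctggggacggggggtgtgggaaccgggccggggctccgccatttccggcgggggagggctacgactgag
Acsl4: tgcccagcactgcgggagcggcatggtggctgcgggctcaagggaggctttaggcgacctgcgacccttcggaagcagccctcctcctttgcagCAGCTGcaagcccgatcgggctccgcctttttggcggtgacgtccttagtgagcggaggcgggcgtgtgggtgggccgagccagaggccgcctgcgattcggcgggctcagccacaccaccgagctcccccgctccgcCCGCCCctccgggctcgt
Klf9: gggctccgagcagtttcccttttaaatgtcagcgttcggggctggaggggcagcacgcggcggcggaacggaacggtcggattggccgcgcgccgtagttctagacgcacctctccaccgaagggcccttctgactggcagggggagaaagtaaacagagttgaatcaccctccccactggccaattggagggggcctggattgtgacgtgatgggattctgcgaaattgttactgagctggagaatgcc

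All 8 of these promoters lay whole within a peak. The motif matches differed between them, with an E-box CAGCTG in Acta1, Ckm, Myh4, Pygm and Acsl4, and a CArG box in Acta1 and Myh4. A match is only a match of letters and was not taken as a bound site.

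The sedentary landscape was mostly distal, and promoter peaks were a larger share of its most enriched peaks than of all peaks. Introns held 50.8% of the peaks, intergenic sequence 30.7% and promoters 11.2%, where a promoter is the class the authors' annotation gives. The median distance to the nearest transcription start site (TSS) was 16.3 kb, 20.5% of peaks lay within 1 kb of it and 10.9% lay over 100 kb away. Median enrichment was 2.25 on the log2 scale, or 4.75-fold, and ranged from 1.5 to 4.77, with medians of 2.26 in C2 alone and 2.28 in C3 alone. It was 2.70 in promoters, 2.20 in introns and 2.17 in intergenic peaks. The top 10% by enrichment began at 3.11 and held 4699 peaks, 10% of all peaks, and promoters made up 27.9% of it. Of promoter peaks 6.74% were in the top 10% by length, which began at 4327 bp, and of intron peaks 12.3%, against 10% of all peaks. Of the top 10% by enrichment, 35.3% was also in the top 10% by length.

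Peak length and Peak Score rose together over the peaks, with a Spearman correlation of 0.917 that is partly fixed by how the score is built, since a longer peak collects more tags. The median length was 1568 bp and the median Peak Score 45.5. Peaks of at least 10 kb numbered 656, or 1.40%, and held 14% of the summed score. The 470 peaks with the highest score, 1% of all, held 12.4% of it. The 10 peaks with the highest score and the 10 with the highest enrichment had no peak in common, as the plot of length against score shows, while 57.2% of the top 10% by enrichment was also in the top 10% by score.

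**Figure D1:**
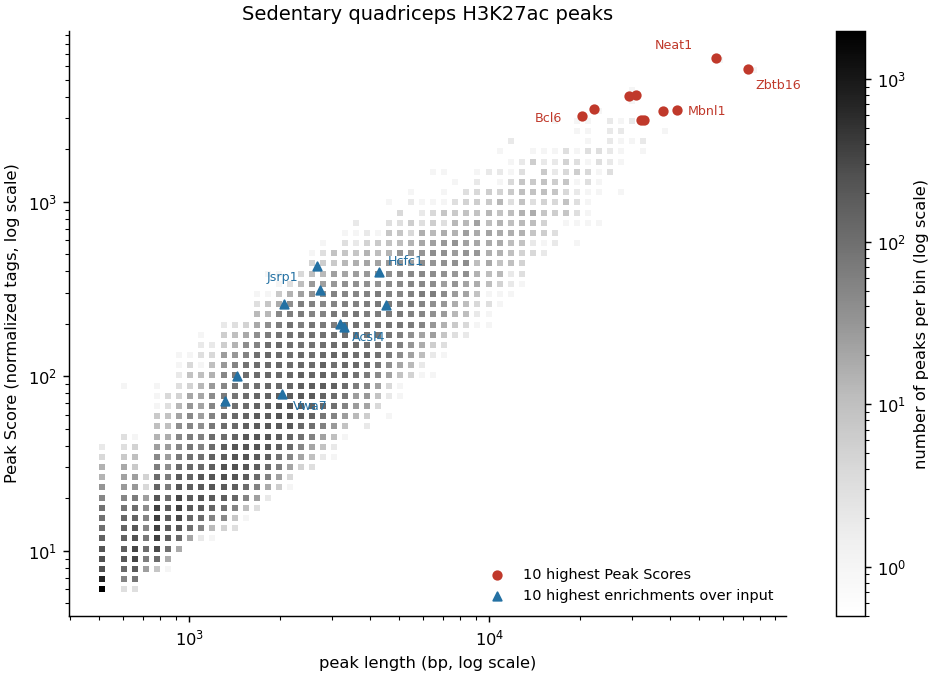
Peak length (bp, log scale) against Peak Score (normalized tags of both libraries per 10000000, log scale) for the 46988 peaks, in bins shaded by number of peaks. Red points are the 10 peaks with the highest Peak Score, led by Neat1 at 57233 bp and Zbtb16 at 73206 bp, and blue triangles are the 10 with the highest enrichment over input, none of which was longer than 4510 bp.

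The strongest peak over input lay at the promoter of Hcfc1. Its log2 value was 4.68 in the input, 9.40 in C2 and 9.50 in C3, an enrichment of 4.77 or 27.3-fold. Acsl4 followed with 3.70 in the input, 8.35 in C2 and 8.53 in C3, an enrichment of 4.74. At both genes the 2 H3K27ac libraries lay close together, and their height above the input is what the peaks were ranked by. Vwa7 came next at 4.57, and the peak also overlapped Vars. Hnrnph1, an RNA-binding splicing regulator, had 5.03 in the input, 9.51 in C2 and 9.62 in C3. Jsrp1, a protein of the junctional sarcoplasmic reticulum that takes part in excitation-contraction coupling, was the one gene of the excitation-contraction list among the 10, at 4.56 in the input, 8.98 in C2 and 9.23 in C3.

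The other 5 of the 10 strongest peaks included those named for Rbm3, a cold-inducible RNA-binding protein, at 4.52, Ftx, a non-coding RNA of the X-inactivation centre, at 4.52, and Pfdn5, a prefoldin subunit, at 4.44. Srxn1, which encodes the antioxidant enzyme sulfiredoxin, had 4.40 and Bcor, a corepressor partner of BCL6, had 4.39 at an intergenic peak 74883 bp from its TSS. Of the 10, 8 lay within 1 kb of a TSS, and of the 100 strongest 59 did. Pfdn5 was the peak of the 10 with the widest gap between libraries, with 7.07 in C2 and 6.80 in C3.

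**Figure D2:**
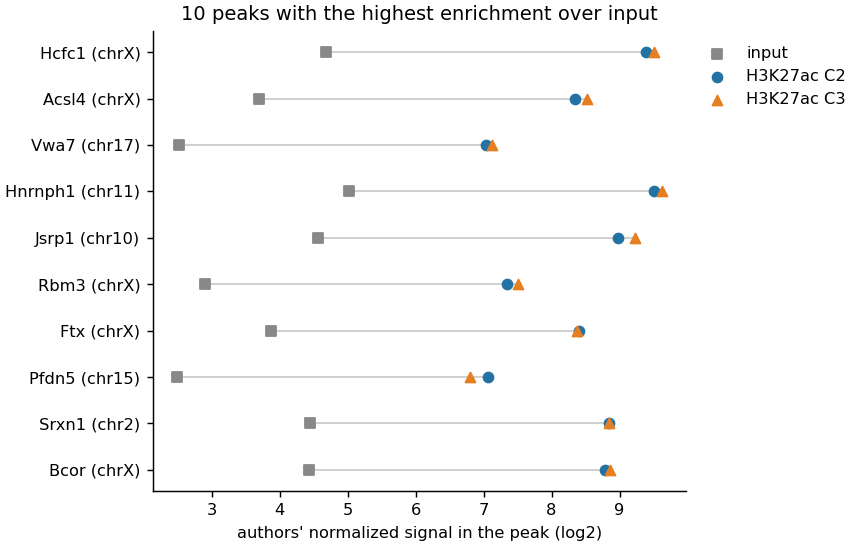
Authors' normalized log2 signal in the input (grey squares), H3K27ac library C2 (blue circles) and H3K27ac library C3 (orange triangles) at the 10 peaks with the highest enrichment over input, 1 row per peak named for its nearest gene and chromosome. The input lay between 2.49 and 5.03 and every H3K27ac value at or above 6.80.

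Hcfc1, Acsl4, Rbm3, Ftx and Bcor are on the X chromosome, as were 13 of the 30 and 21 of the 100 strongest peaks. The X carried 1003 peaks, 2.13% of all, and 16.3% of them were in the top 10% by enrichment, against 9.86% of the peaks on autosomes. Median enrichment was 2.42 on the X and 2.24 on autosomes, the highest of the 19 autosomes and the X, and the difference was 0.15 in C2 and 0.17 in C3. The Y carried 6 peaks, with a median of 2.7, and was left out of this order. Per kb of peak, the input signal on the X was 0.59 lower than on autosomes and the H3K27ac signal was 0.40 lower, on the log2 scale. Without the input subtracted, peaks were ranked by H3K27ac signal over the whole peak, which is not scaled to length. In that ranking 0.787% of the top 10% lay on the X, the share also found by Peak Score, against 3.47% by enrichment. The mice were male, and the part of the lower input signal on the X in the order by enrichment was not tested. Within promoters the difference in median enrichment was 0.02, and outside promoters it was 0.16. Within 5 equal classes of Peak Score, from the lowest to the highest, it was 0.05, 0.30, 0.30, 0.46 and 0.39.

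**Figure D3:**
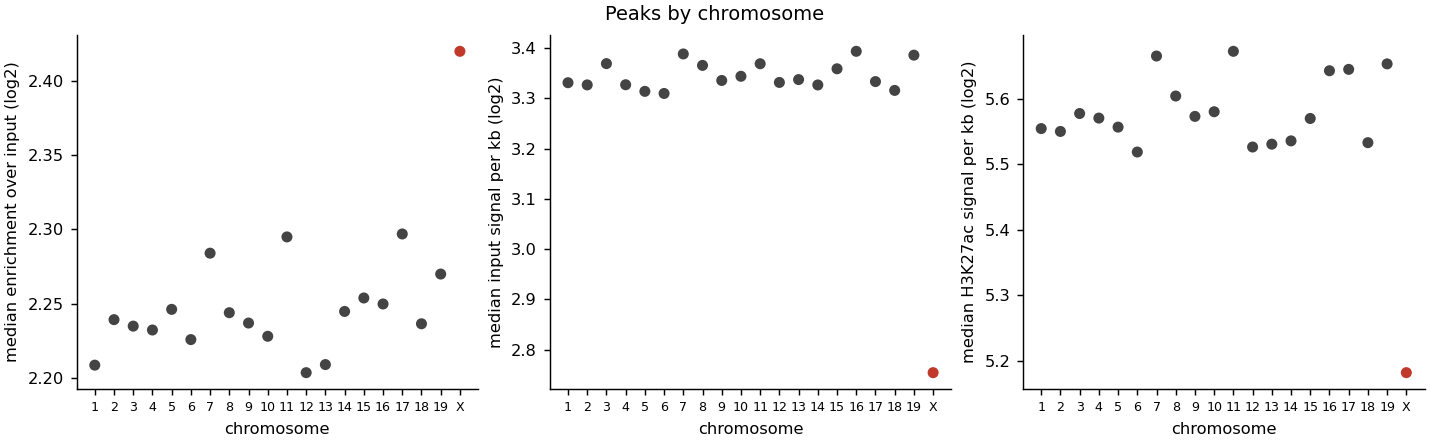
Median enrichment over input, median input signal per kb of peak and median H3K27ac signal per kb of peak (all log2) for the peaks of each autosome (grey) and the X chromosome (red). The X has the highest median enrichment, 2.42, and the lowest median signal per kb in both the input, 2.75, and H3K27ac, 5.18.

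The 10 peaks with the highest Peak Score were between 20325 and 73206 bp long. The highest Peak Score, 6668.2, was that of a 57233 bp peak on chromosome 19 that ran over the nuclear non-coding RNAs Malat1 and Neat1 and over Frmd8. Its log2 values were 9.90 in the input, 13.48 in C2 and 13.62 in C3. The longest peak, 73206 bp with a score of 5733.4, lay in introns of Zbtb16, which encodes the zinc-finger factor PLZF. It had 10.05 in the input, 13.33 in C2 and 13.33 in C3, and its enrichment of 3.29 was lower than the 3.65 of the Neat1 peak. Next was a 30926 bp peak that the table names for Mir1191b and that overlapped Nfic, a nuclear factor I gene, with an enrichment of 3.95. A 29187 bp peak at the non-coding gene 2310001H17Rik followed, with a score of 4053.8 and an enrichment of 3.87. Klf9 had 8.60 in the input, 12.48 in C2 and 12.66 in C3 over 22336 bp, and Bcl6, a transcriptional repressor, had an enrichment of 3.88 over 20325 bp.

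The splicing regulators Mbnl1 and Rbfox1 had the 3rd and 4th longest peaks, of 42228 and 38111 bp, both inside introns. Mbnl1 had 9.45 in the input, 12.43 in C2 and 12.67 in C3, and Rbfox1 had 9.09, 12.32 and 12.74 in the same order. The Rbfox1 peak differed most between libraries among the 10 longest, with enrichments of 3.23 in C2 and 3.64 in C3. The others of the 10 longest were at Rcsd1, Nfix, Smtnl2, Lsp1, Cish and Mir196a-2, of 32027 to 37743 bp, the last of these over Hoxc9, Hoxc10 and Hoxc11. Nfix encodes a nuclear factor I that acts in myogenesis, and Cish encodes an inhibitor of cytokine signalling. The Lsp1 peak also covered Tnnt3, the fast troponin T gene, which no peak was named for. Among the 10 longest, Cish was the peak where C2 lay furthest above C3, at 11.89 against 11.68.

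Signal density gave another order. By Peak Score per kb, the first was Brd2, a BET-family reader of acetylated histones, at 233 per kb over 6527 bp. This gene was chosen after its values were seen. Brd2 had 7.19 in the input, 11.27 in C2 and 11.54 in C3. Of the top 10% by score per kb, 24.6% was also in the top 10% by length, against 68.8% of the top 10% by score and 10% of all peaks.

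The 10 genes with the most peaks spread them over 301 to 730 kb. Of the 14784 genes with a nearest peak, 42.1% had 1 peak, 857 had at least 10 and 126 had at least 20. The non-coding gene 9430078K24Rik had 59 peaks over 414 kb, Plpp3, a lipid phosphate phosphatase, had 43, and 9530091C08Rik and Rora, a nuclear receptor, had 39 each. Rora had 38 of its 39 peaks in introns, over 730 kb. Dlc1, a GTPase-activating protein, had 38, Pik3r1, the regulatory subunit of PI3-kinase, 36, Nfia, a nuclear factor I, 35, Foxp1, a forkhead factor, 34, Sox6, a repressor of slow fibre genes, 33, and Arhgap24, a GTPase-activating protein, 32. The median enrichment over a gene's peaks ran from 1.99 at Foxp1 to 2.28 at Rora, against 2.25 over all peaks. The number of peaks had a Spearman correlation of 0.711 with the span from the first to the last peak over the 8560 genes with 2 or more. With peaks within 50 kb of the TSS alone, Dlc1 and Foxp1 stayed among the 10 genes with the most peaks, with 27 and 20, and 262 genes had at least 10.

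Summed length named partly other genes. 9430078K24Rik led with 167494 bp, followed by Zbtb16 with 118512 bp in 9 peaks and Mbnl1 with 102553 bp in 24 peaks. Plpp3, Rbfox1, Mir1904, Sgms1, Hivep2, Tcf4 and Rora followed, with 84480 to 90698 bp. Hivep2 differed from the others in strength, with a strongest peak of 4.26 and a median over its 23 peaks of 2.51.

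Few genes were strong, long and numerous at once, though the 3 traits went together. Over the 14784 genes, the number of peaks had a Spearman correlation of 0.370 with the strongest peak and 0.569 with the longest. Taken per gene, 1479 genes were in the top 10% by strongest peak and 1479 by longest peak, and 1745 genes, 11.8%, had 7 peaks or more. All 3 held for 175 genes, or 1.18%. By summed Peak Score these were led by Mbnl1, Cuedc1 and Klf9, and they included Jun, a subunit of the AP-1 factor, with 22 peaks, and Nfix with 7. The 18 of them that were in a gene list included Myl1, Synpo2 and Tmod1 of the sarcomere, Phkb of glycogen breakdown, Acsl1 and Lpl of lipid use, and Akt2 of insulin signalling.

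Contractile genes of fast fibres had the highest median strongest peak of the 25 gene lists with both libraries, though not in C2 alone, where their 3.28 was below the clock list and the immediate early list, at 3.34 each, and level with excitation-contraction at 3.28. Single peaks of other lists were stronger, such as those of Jsrp1, Nr1d1 and Phka1. Of 16 fast sarcomere genes, 15 had a peak of their own, and the median of the strongest peak per gene was 3.48, against 2.75 over all genes with a peak. In 12 of the 15 it was in the top 10%, against 26.7% of all genes, and the median longest peak was 8540 bp, against 2272 bp. Tmod4, a tropomodulin that caps thin filaments, led with 6.36 in the input, 10.27 in C2 and 10.58 in C3, an enrichment of 4.07. Mybpc2 had 6.58 in the input, 10.22 in C2 and 10.69 in C3, and Casq1, the calcium buffer of the fast sarcoplasmic reticulum, had 6.94, 10.59 and 10.90. At all 3 genes C3 was above C2. The longest peaks of the list were 22791 bp at Tpm1, a tropomyosin, and 21762 bp at Pvalb, the calcium-binding parvalbumin of fast fibres, whose enrichment was 3.16. C3 was above C2 in 97.1% of the 35 fast sarcomere peaks, against 56.9% of all peaks. The median strongest peak of the list stood 0.73 above that of all genes with both libraries, 0.84 above it in C3 alone and 0.55 above it in C2 alone.

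The myosin heavy chain cluster on chromosome 11 showed H3K27ac at the promoters of the fast adult genes Myh4 and Myh1. A 26105 bp peak over 2310065F04Rik, the non-coding gene linc-Myh, had the 11th highest Peak Score, 2900.2, with 8.23 in the input, 12.13 in C2 and 12.53 in C3. The promoter of Myh4 lay in a 17925 bp peak named for the neighbouring antisense gene Myhas, with 7.97 in the input, 10.95 in C2 and 11.32 in C3. The 3 peaks named for Myh4 itself were short and weak, with Peak Scores of 20.6, 21.7 and 36.9. The promoter of Myh1, the 2X myosin, lay in an 8307 bp peak with 6.76 in the input, 9.30 in C2 and 9.61 in C3. Myh2, the 2A myosin, had its promoter in no peak. Its 2 upstream peaks, of 790 and 1706 bp, had Peak Scores of 10.9 and 64.7, against a median of 45.5 over all peaks. The promoters of the developmental Myh3 and Myh8, the slow Myh7 and the cardiac Myh6 were also in no peak.

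Slow-fibre genes had values nearer to those of all genes than fast ones did. Of 15 slow sarcomere and calcium genes 10 had a peak, with a median strongest peak of 2.54, and 2 of the 10 had one in the top 10%, against 26.7% of all genes. Myh7, Myh7b, Tnnt1, Tnnc1 and Myl6b had none named for them, although the promoter of Myl6b lay in a peak named for A430046D13Rik at 3.53. Of the promoters in the RefSeq table, 4 of 13 slow genes and 11 of 12 fast genes lay whole in a peak, against 37.3% of all genes in that table. The strongest slow-list peak was at Myoz2, a Z-disc protein, at 3.32, at -95890 bp from its TSS, and Tpm3, slow tropomyosin, followed at 3.13. Pln, phospholamban, had 13 peaks, none above 2.51. The list stood at -0.20 from all genes by the strongest peak and at -0.068 by the mean over a gene's peaks.

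Most genes of the sarcomere frame and the calcium-release machinery had a long peak, with 29 of 33 scaffold genes and 21 of 26 excitation-contraction genes holding one in the top 10% by length, against 21.3% of all genes. All 33 sarcomere scaffold and Z-disc genes had a peak, with a median of 3.35 and a median longest peak of 7749 bp. They stood 0.60 above all genes by the strongest peak and 0.24 by the mean over a gene's peaks. Ldb3, a Z-disc protein, led at 3.98 with 6.81 in the input, 10.56 in C2 and 11.02 in C3, and Pdlim7 was at 3.77. The longest was 29998 bp at Ky, and Ttn, the giant titin, had 15 peaks and Pdlim5 16. Neb, the thin-filament ruler nebulin, had 5 peaks, the strongest at 3.29. Of 27 excitation-contraction genes, 26 had a peak, with a median of 3.38, and the top of the list was Jsrp1 at 4.54, Kcnj11, a subunit of the K-ATP channel, at 3.86 and Trim72, a membrane-repair protein, at 3.77. Jph2, a junctophilin that ties the membrane systems together, had a 26353 bp peak at 3.55, and Ryr1, the calcium-release channel, a peak of 7921 bp at 3.47. Hrc had no peak of its own, and its promoter lay in a peak named for Trpm4 at 3.25.

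All 19 dystrophin complex genes had a peak, with a median of 3.17, with the sarcoglycan Sgca at 3.71 and the protease Capn3 at 3.59. Dmd, dystrophin, and Utrn, its homologue utrophin, had 12 peaks each, the strongest at 3.20 and 3.17. With the mean over a gene's peaks in place of the strongest, the list stood at -0.0087 from all genes, against 0.42 above them, so its direction depended on this choice. The 16 neuromuscular junction genes had a median of 2.62 over the 11 with a peak, below that of all genes. Dok7, an activator of the kinase MuSK, was highest at 3.41, Musk had 9 peaks with the strongest at 3.14, and Chrnd, Chrng, Erbb2, Erbb3 and Nrg1 had none.

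Glycolysis had the highest median longest peak per gene of all 25 lists, though single peaks of other lists were longer, such as those of Nfix and Ky. All 35 glycolysis and glycogen genes had a peak, with a median strongest peak of 3.39, and 29 of 35 had a peak in the top 10% by enrichment, against 26.7% of all genes. Their median longest peak was 9657 bp. Phka1, the muscle regulatory subunit of phosphorylase kinase, led at 4.22 with 3.44 in the input, 7.42 in C2 and 7.90 in C3. It is on the X chromosome. Aldoa, aldolase A, had 7.69 in the input, 11.42 in C2 and 11.73 in C3 over 13890 bp, and Pgam2, muscle phosphoglycerate mutase, had 3.88. The longest peak was 28982 bp in Hk2, hexokinase 2, with 8.86 in the input, 12.06 in C2 and 12.47 in C3, followed by 20152 bp at Eno3, muscle enolase. All 32 glycolysis promoters in the RefSeq table lay in a peak, against 37.3% of all genes there. C3 was above C2 in 85.1% of the 134 peaks of this list.

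Oxidative phosphorylation genes had strong peaks with lengths near those of all genes. The median strongest peak of the 46 oxidative phosphorylation genes with a peak was 3.23, and 31 of the 46 had one in the top 10% by enrichment, against 26.7% of all genes. Their median longest peak was 2390 bp, near the 2272 bp of all genes, and 6 of the 46 had a peak in the top 10% by length, against 21.3% of all genes. Atp5g3, Atp5l and Cox8a, subunits of ATP synthase and cytochrome oxidase, led at 3.9, 3.82 and 3.77. Atp5g3 had 5.41 in the input, 9.25 in C2 and 9.38 in C3. The 5 genes with no peak of their own included Ndufa1, Cycs, Atp5a1 and Atp5f1, and the promoter of Cycs, cytochrome c, lay in a peak at 4.13 named for 5430402O13Rik. All 39 genes of fatty acid oxidation and the citrate cycle had a peak, with a median of 3.14, led by Pdha1, a pyruvate dehydrogenase subunit, at 4.03 and Acsl1, an acyl-CoA synthetase, at 3.86. Cd36, a fatty acid transporter, had the longest of these at 11771 bp, and Acadl, long-chain acyl-CoA dehydrogenase, had 6.32 in the input, 9.01 in C2 and 9.19 in C3 at its promoter. Ribosomal protein genes had a median strongest peak of 2.84 and a median longest peak of 2020 bp, and 1 of the 31 with a peak had one in the top 10% by length. They stood 0.096 above all genes by the strongest peak and 0.33 by the mean over a gene's peaks.

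**Figure D4:**
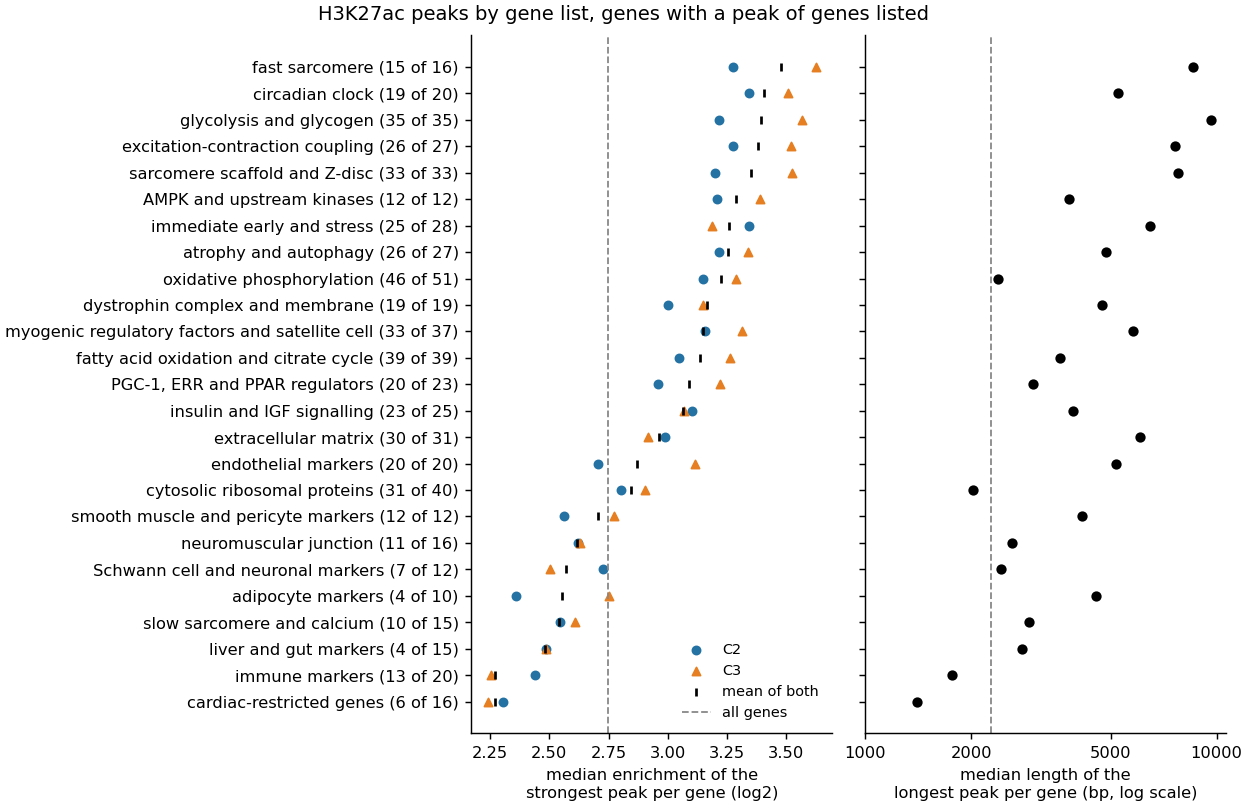
Left, median over a list's genes of the highest log2 enrichment over input among a gene's peaks. The highest peak was taken separately in C2 (blue circles), in C3 (orange triangles) and from the mean of both libraries (black bars). The dashed line is the median over all genes with a peak from the mean of both, 2.75. Right, median length of the longest peak per gene (bp, log scale), with 2272 bp over all genes as the dashed line. Numbers beside each list are genes with a peak of genes listed, and the fast sarcomere, clock and glycolysis lists have the 3 highest black bars at left, while in C2 the clock list is highest.

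The coregulator and receptor list stood 0.34 above all genes by the strongest peak and 0.19 by the mean over a gene's peaks, and the AMPK list 0.54 and 0.14. Of the 20 coregulator and receptor genes with a peak 4 had 7 peaks or more, and of the 12 AMPK genes 3 did, against 11.8% of all genes. The coregulator and nuclear receptor list had a median of 3.09 over 20 of 23 genes, led by Esrra, estrogen-related receptor α, at 3.96, Ncor1, a corepressor, at 3.82 and Nrip1, also a corepressor, at 3.75. Ppargc1a, the coactivator PGC-1α, had 14 peaks, of which the strongest, at 2.83, lay in an intron with 6.19 in the input, 8.84 in C2 and 9.21 in C3. Its promoter peak was 1563 bp with an enrichment of 2.47, below the 2.70 median of promoter peaks. All 12 AMPK genes had a peak, with a median of 3.29. Prkab1, a β subunit, led at 3.82, and Prkaa2, the α2 catalytic subunit of muscle, had an 18065 bp peak at 3.73.

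Insulin signalling genes had many peaks, with 13 of 23 genes at 7 peaks or more, against 11.8% of all genes. Its median strongest peak was 3.06, or 0.32 above all genes, and -0.022 from them with the mean over a gene's peaks. It was led by Mtor at 3.91 and Akt2 at 3.86, and Tbc1d1, a Rab GTPase-activating protein, had 24 peaks. Irs1, the insulin receptor substrate, had a 13393 bp peak at 3.43, and Slc2a4, the glucose transporter GLUT4, was at 3.49. Igf2 and Tsc2 had no peak of their own. Among atrophy and autophagy genes the median was 3.26 over 26 of 27, led by Sqstm1, the autophagy receptor p62, at 4.15, Fbxo30, an E3 ubiquitin ligase of atrophy, at 3.98, and Tfeb, a regulator of lysosomal genes, at 3.97. The list stood 0.51 above all genes by the strongest peak and 0.32 by the mean over a gene's peaks. Gabarapl1 had no peak of its own.

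Nr1d1, the clock repressor REV-ERBα, had a peak at 4.32 with 7.12 in the input, 11.35 in C2 and 11.53 in C3, at -9698 bp from its TSS. Per1, a period gene, followed at 4.08 and Dbp, a clock output factor, at 4.05, and the 3 were the highest of 19 clock genes with a peak, whose median was 3.4. Bhlhe41, a clock repressor, had an 18370 bp peak, and Rora had the most peaks. Immediate early and stress genes had a median of 3.26 over 25 of 28, with Klf6 at 4.0, Jun at 3.95 and Fos, the partner of JUN, at 3.87. Klf4 had 27 peaks and Nr4a1, an orphan nuclear receptor, an 18818 bp peak. With the mean over a gene's peaks in place of the strongest, the clock list went from 0.66 to 0.35 above all genes and the immediate early list from 0.51 to 0.12. Egr2 and Fosl1 had no peak of their own, and the promoter of Cebpb lay in an 11875 bp peak named for A530013C23Rik.

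Myogenic factors had a median of 3.15 over 33 of 37 genes, 0.40 above all genes by the strongest peak, 0.082 by the mean over a gene's peaks and 0.21 by the peak over the promoter. Mef2d, a MEF2 factor, led at 4.02 with 8.30 in the input, 12.19 in C2 and 12.45 in C3, followed by Nfix at 3.88 and Myog, myogenin, at 3.79. Tead1, a TEAD factor, had 23 peaks. Myod1, which encodes MyoD, had a 10087 bp peak with 6.70 in the input, 10.03 in C2 and 10.31 in C3. Mef2b, Srf, Myocd and Tead2 had no peak of their own, and the promoter of Srf lay in a peak at 2.82 named for Mir6976.

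The labelled tissue was checked against genes that skeletal muscle uses. Acta1, Ckm, Ttn, Neb, Myh4, Ryr1, Des and Myod1 all had a peak. The strongest at Acta1 was 7724 bp long and 11776 bp downstream of the TSS, with 6.44 in the input, 9.92 in C2 and 10.31 in C3. The peak over its promoter had 6.75, 9.98 and 10.31 in the same order. Ckm had a single peak of 10061 bp with 7.13 in the input, 10.52 in C2 and 10.90 in C3. Ngdn, which encodes neuroguidin and served as an invariant control gene, had 5.19 in the input, 8.18 in C2 and 8.23 in C3.

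Marker genes of other cell types of muscle had peaks in unequal measure. The share of all annotated genes with a peak of their own was not counted, so these counts have no background beside them. Among genes in the RefSeq promoter table, 11 of 11 endothelial and 6 of 9 smooth muscle and pericyte genes had a promoter whole in a peak. Of all genes there 37.3% did. All 20 endothelial markers had a peak, with a median of 2.87, led by Esam, an endothelial adhesion molecule, at 3.71, and Fli1 and Erg, ETS factors of endothelium, at 3.4 and 3.37. Egfl7 had an 18599 bp peak. The endothelial median was 0.13 above that of all genes, but stood at -0.024 from it in C2 alone. All 12 smooth muscle and pericyte markers had one, with a median of 2.71, and Des, which muscle fibres also use, led at 3.65. Extracellular matrix genes had a median strongest peak of 2.96, against 2.75 for all genes, and a median longest peak of 6059 bp, with 18.0% of their 211 peaks in the top 10% by length and 4.27% in that by enrichment, against 10%. With the mean over a gene's peaks in place of the strongest, the list stood at -0.028 from all genes, against 0.21 above them. Hspg2, the basement membrane protein perlecan, had a 27558 bp peak, Col4a1, a collagen IV chain, one of 23166 bp, and Adamts1, a secreted protease, the highest enrichment at 3.75.

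Immune markers had a peak in 13 of 20 genes, at a median of 2.27, and Ptprc, Cd68, Cd3d, Cd4, Cd8a, Cd14 and Nkg7 had none. Spi1, a myeloid transcription factor, was highest at 3.72, and Csf1r, the receptor of macrophage growth factor, had 4.38 in the input, 7.78 in C2 and 7.35 in C3. Adipocyte markers had a peak in 4 of 10 genes, with none at Adipoq, Plin1, Cidec, Retn, Ucp1 or Cfd. Schwann cell and neuronal markers had one in 7 of 12, led by Snap25 at 3.25, and the 5 without one included Sox10, Neurod1, Stmn2 and Gfap. Of 16 cardiac-restricted genes 6 had a peak, none above 2.65, and of 15 liver and gut genes 4 had one, none above 2.72. No liver and gut promoter of the 11 in the RefSeq table lay in a peak, against 37.3% of all genes there. In the same table, 3 of 13 immune genes and 2 of 9 adipocyte genes had a promoter whole in a peak. So did 1 of 6 Schwann cell and neuronal genes and 1 of 13 cardiac-restricted genes.

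The order of the 2 libraries differed between the marker lists. C3 was above C2 in 81.5% of 108 endothelial peaks, with a median difference of 0.30, and in 75.6% of 45 smooth muscle and pericyte peaks. It was above C2 in 20.8% of 24 immune peaks, with a median difference of -0.18, and in 39.8% of extracellular matrix peaks, against 56.9% and a median difference of 0.05 over all peaks. With 1 animal per library, the animal and the library cannot be told apart.

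Sequence under the peaks was described in windows of 300 bp, beside windows of the same length 10 kb from a peak edge and outside any peak. The 13 motifs searched on both strands were those above with the AP-1 site TGANTCA, the CREB site, the E-box of clock factors, and the palindromic sites of nuclear factor I, of steroid receptors and of NRF1. At the centre of the 37366 peaks over 1 kb from a TSS, CAGCTG stood in 19.8% of windows, against 12.9% of 61066 flanking windows. TGANTCA, the AP-1 site, stood in 11.2% against 8.61%, AAGGTCA in 7.36% against 5.67%, and the palindromic steroid receptor site in 0.985% against 0.534%. MEF2 differed less, with 5.88% against 5.52%, as did the CArG box, with 1.58% against 1.54%. CCGGAAG stood in 1.93% against 1.03%, GGGCGG in 6.43% against 3.75% and the CREB site in 0.337% against 0.188%. Relative to the flanks, these rose more than CAGCTG did. Median GC content was 47.0% in the peaks and 44.7% in the flanks, and its part in these shares was not tested.

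At promoters, the 76 fast sarcomere, scaffold and excitation-contraction genes differed from the housekeeping groups in motif content. Of the 66 RefSeq promoters of the 52 genes that matched, 16.7% held a MEF2 match, 7.58% a CArG box, 30.3% CAGCTG and 22.7% CATTCC. Over all 32851 promoters the shares were 3.19%, 1.63%, 16.3% and 14.7%. Of 76 promoters of oxidative phosphorylation and ribosomal protein genes, 0 held a MEF2 match or a CArG box, 9.21% held CAGCTG and 26.3% held CCGGAAG, against 8.86% of all. RefSeq promoters that lay whole in a peak numbered 12015, or 36.6%, and 62.2% of these held GGGCGG, against 20.4% of those outside peaks. They held 7.15 CpG per 100 bp, against 2.41 outside peaks. In the longest peaks motif density differed from peak to peak, with MEF2 at 0.355 matches per kb in the Mbnl1 peak and 0.082 in the Zbtb16 peak, against 0.174 over all peaks.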

How the data were processed

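Quadriceps H3K27ac was measured by ChIP-seq in 2 libraries with 1 input. Per the submitters' notes and methods, the authors mapped reads with Bowtie 1.2 to the mm10 genome, called peaks with HOMER on both H3K27ac libraries pooled against the input, and deposited 1 annotated table per group. The Peak Score is a signal that the authors deposited, pooled over C2 and C3 and scaled to 10000000 tags. Each library's log2 value, also deposited by the authors, is a regularized log of tags made within HOMER, which shrinks differences between input and H3K27ac. The last 3 columns hold the authors' log2 fold change over input with its p-value and adjusted p-value and were not used.

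Peak length was end minus start, and each peak was given to the gene in the authors' annotation, the one with the nearest TSS. Sets of the top 10% were taken over all peaks. No test was made, because peaks were called on enrichment over this input. The members and the 25 gene lists (599 entries, 595 genes) were chosen with earlier results of these data known. Of the 595 genes, 515 had a peak of their own, and the share of all annotated genes with one was not counted. One list gene was matched through an older symbol. Genes named were those of the 10 strongest, highest-scoring and longest peaks, the 10 with the most peaks and with the greatest summed length, per list the 3 strongest, 2 longest and 2 with the most peaks and those without a peak, and 10 genes that the study discusses. Sequences came from RefSeq on GRCm38.p6, the assembly named mm10, and promoter windows from its table of 250 bases before to 50 after a start. Some genes that the rule names are not reported here. The promoter table had no entry for Jsrp1, Zbtb16, Neat1, Tnnt3 or Neb.

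Alternatives left out each library, the input or weak peaks, changed the promoter definition, the distance, the score per kb, the gene average and the window, and, added after seeing the data, gave genes the peaks over their body or promoter. The log2 libraries are 1 animal each, so precision rests on 2 values per peak. The steps were tested on simulated data. The software was matplotlib 3.10.9, scipy 1.17.1, pandas 2.3.3 and numpy 2.4.6 under Python 3.11.15.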

Additional observations from a re-analysis of the deposited data

How the results depend on the processing

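The median enrichment of 2.25 was 2.26 to 2.28 with 1 H3K27ac library left out, 2.62 in peaks with a Peak Score at or above the median, and 6.30 as a level without the input subtracted. Promoters were 11.2% of peaks, 9.95% by distance to the TSS and 19% in the peaks with a score at or above the median. Of the top 10% by enrichment 27.9% lay in promoters, 25.5% to 29.7% with 1 library left out, 30.7% among higher-scoring peaks and 20.1% without the input subtracted. Without the input, the ranking is by signal over the whole peak and is not scaled to length. By Peak Score the promoter share was 20.2%. The share on the X chromosome was 3.47%, and 0.787% without the input. It was 3.34% to 3.41% with 1 library left out and 3.11% outside promoters. Of the top 10% by length, 35.3% was also in the top 10% by enrichment, and 39.6% outside promoters. Of the top 10% by Peak Score, 68.8% was in the top 10% by length, and 24.6% by score per kb. Genes with at least 10 peaks fell from 857 to 262 within 50 kb of the TSS and to 130 in higher-scoring peaks. The ratio of CAGCTG shares between peaks and flanks was 1.54 in windows of 300 bp and 1.61 in windows of 100 bp.

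Of the 25 lists, 17 had a median above that of all genes, and 14 to 18 did under the alternatives. With the mean over a gene's peaks in place of the strongest, the difference from all genes went from 0.42 to -0.0087 for the dystrophin complex, from 0.32 to -0.022 for insulin signalling and from 0.21 to -0.028 for extracellular matrix. The endothelial list was at -0.024 in C2 alone and 0.33 in C3 alone, -0.0061 in higher-scoring peaks and -0.10 by the peak over the promoter. Adipocyte markers were at 0.67 without the input and Schwann cell and neuronal markers at 0.19 by the peak over the promoter. What moved these lists was not examined further.

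No paired analysis was possible because no groups were compared and the columns C2 and C3 do not carry the numbers of the labels. With 1 input of 10812470 tags, all enrichments share its counting error. Nearest-gene naming places some promoters under a neighbour's name, and 31 of the 80 list genes without a peak of their own had one over the gene body.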
